A study of Mus musculus with 20 samples.

Results

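The genes described are the 39 Hox genes of the mouse table, taken as every gene whose symbol is Hox, a cluster letter from a to d and a number, out of 24393 genes measured. They comprised 11 genes of the HoxA cluster, 10 of HoxB, 9 of HoxC and 9 of HoxD. The series measured RNA in 3 cell populations from hindlimb muscle of mice (quadriceps, tibialis anterior and gastrocnemius), to ask which cells of fibrotic muscle make extracellular matrix. The populations are named FAP, SMP and Misc in the labels and the conditions WT and DKO, with 4 libraries each of FAP WT, FAP DKO, Misc WT and Misc DKO and 2 each of SMP WT and SMP DKO. Strain, age, sorting gates and pooling of animals are not stated in the labels, so the p-values measure the spread between these libraries. By common usage FAP are fibro/adipogenic progenitors, which lie as mesenchymal cells between the fibres, and SMP are skeletal muscle progenitors. The labels give no meaning for Misc, and the design text lists a population FB that no label ties to it. The labels do not spell out DKO, which is read here, as an assumption from background, as combined loss of desmin (Des) and nesprin 1 (Syne1).

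Hox genes encode homeodomain transcription factors that give cells along the body axis and along a limb their positional identity. They lie in 4 clusters in which the order of the genes on the chromosome follows the order in which they are used from head to tail and, for the posterior genes of HoxA and HoxD, from the base of the limb to its tip. Connective tissue cells of adult organs keep much of this embryonic pattern, the Polycomb and Trithorax complexes hold the clusters off or on, and Hox proteins bind DNA together with cofactors of the Pbx and Meis families.

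The difference described below was largest in the HoxD cluster, which lies on the forward strand of chromosome 2, so the promoter windows of 5 of its tested genes are shown. Each holds 250 bases before and 50 after an annotated start, from RefSeq (GRCm38.p6, the assembly also named mm10), with matches to 5 motifs in capitals. 22 of the 39 genes had an entry. The windows are chr2:74667975-74668274 for Hoxd13, chr2:74679308-74679607 and chr2:74682073-74682372 for 2 starts of Hoxd11, chr2:74691641-74691940 for Hoxd10, chr2:74697513-74697812 for Hoxd9 and chr2:74704365-74704664 for Hoxd8.
Hoxd13: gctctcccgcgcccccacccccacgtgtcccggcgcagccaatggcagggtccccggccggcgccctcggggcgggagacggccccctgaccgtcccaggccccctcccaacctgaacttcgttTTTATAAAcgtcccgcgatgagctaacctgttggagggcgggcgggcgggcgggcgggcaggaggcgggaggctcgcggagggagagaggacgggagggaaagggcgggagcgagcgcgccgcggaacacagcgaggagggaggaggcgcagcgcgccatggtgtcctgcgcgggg
Hoxd11 start 1: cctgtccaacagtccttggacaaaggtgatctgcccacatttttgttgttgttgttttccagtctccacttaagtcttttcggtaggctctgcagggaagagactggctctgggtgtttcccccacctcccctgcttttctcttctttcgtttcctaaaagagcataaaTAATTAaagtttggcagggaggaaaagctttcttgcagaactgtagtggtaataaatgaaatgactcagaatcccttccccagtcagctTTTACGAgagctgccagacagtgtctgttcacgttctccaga
Hoxd11 start 2: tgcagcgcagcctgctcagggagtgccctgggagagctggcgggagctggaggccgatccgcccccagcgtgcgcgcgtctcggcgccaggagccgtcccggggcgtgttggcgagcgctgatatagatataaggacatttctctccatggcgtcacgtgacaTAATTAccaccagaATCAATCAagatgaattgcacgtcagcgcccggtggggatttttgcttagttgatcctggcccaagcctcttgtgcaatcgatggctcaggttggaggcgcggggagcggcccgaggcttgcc
Hoxd10: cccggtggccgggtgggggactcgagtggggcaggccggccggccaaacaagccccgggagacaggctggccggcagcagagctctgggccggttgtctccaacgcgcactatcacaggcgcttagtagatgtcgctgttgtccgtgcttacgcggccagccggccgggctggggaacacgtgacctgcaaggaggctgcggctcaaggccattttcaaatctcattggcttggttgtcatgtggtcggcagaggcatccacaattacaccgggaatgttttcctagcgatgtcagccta
Hoxd9: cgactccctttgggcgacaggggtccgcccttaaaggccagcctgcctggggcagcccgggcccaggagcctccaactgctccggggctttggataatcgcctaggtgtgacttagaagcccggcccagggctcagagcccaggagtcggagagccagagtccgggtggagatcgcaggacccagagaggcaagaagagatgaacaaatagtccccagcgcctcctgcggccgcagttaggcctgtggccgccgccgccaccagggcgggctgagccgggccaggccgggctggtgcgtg
Hoxd8: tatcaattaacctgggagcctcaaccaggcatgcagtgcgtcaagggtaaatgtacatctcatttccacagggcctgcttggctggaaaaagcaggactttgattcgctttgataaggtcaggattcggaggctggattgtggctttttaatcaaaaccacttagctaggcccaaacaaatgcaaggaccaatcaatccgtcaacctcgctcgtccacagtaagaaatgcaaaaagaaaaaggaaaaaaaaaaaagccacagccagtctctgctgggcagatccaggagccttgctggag
The motifs, searched on both strands, were the Hox-Pbx composite TGATNNAT, found in 8.85% of all 32851 windows of this length, the Meis or Pknox site TGACAG (19.2%), the Hox core TAATTA (5.29%), the posterior Hox motif TTTACGA (0.597%) and the TATA box TATAAA (13.6%). The capitals of Hoxd13 mark overlapping TATA box matches on the 2 strands, those of the first Hoxd11 start a Hox core and a posterior Hox match, and those of the second a Hox core and a composite match. The letters of these motifs were not in the windows of Hoxd10, Hoxd9 and Hoxd8. GC content was 74.3% for Hoxd13, 45.7% and 62.0% for Hoxd11, 62.7% for Hoxd10, 68.3% for Hoxd9 and 46.7% for Hoxd8, against a median of 52.7% over all windows.

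Libraries held 5.83 to 17.73 M counts. RNA of Des (desmin) was lower in DKO than in WT in each population, by log2 fold changes of -1.81 in FAP, -1.25 in Misc and -1.45 in SMP. Syne1 changed by -0.69 in Misc and -1.03 in SMP, and its -0.31 in FAP missed the threshold (adjusted p = 0.12). Markers matched the names FAP and SMP: Pdgfra stood at 934 to 1342 CPM (scaled counts per 1000000) in FAP libraries and at 291 to 485 in Misc libraries, and Pax7 at 100.0 to 270 CPM in SMP libraries. Within SMP, Pax7 was called lower in DKO than in WT. The 5 tendon markers summed to 46865 to 69067 CPM in Misc libraries, 591 to 801 in FAP WT, 2960 to 4830 in FAP DKO and 2569 to 5065 in SMP, and none was at 0 in any group. SMP DKO replicate 2 stood apart, with Pdgfra at 112 CPM against 9.32 to 10.4 in the other 3 SMP libraries, and Ptprc, a leukocyte marker, at 14.4 CPM against 0 to 0.162.

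The libraries held a posterior Hox profile led by HoxC in every group. Per kilobase of exon, Hoxc10, a gene used in the developing hindlimb, ranked first in all 6 groups, from 23.9 CPM per kilobase in FAP WT to 64.6 in SMP WT. Next in FAP WT came Hoxc6 at 6.85 and Hoxa10 at 6.25 CPM per kilobase, and in SMP WT Hoxa10 at 8.88, Hoxc6 at 8.85 and Hoxc9 at 8.73. HoxC genes made up 51.6% (Misc WT) to 66.1% (SMP WT) of all Hox counts as group means, HoxA genes 27.9% to 32.5% and HoxB genes 1.01% to 2.94%.

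**Figure D1:**
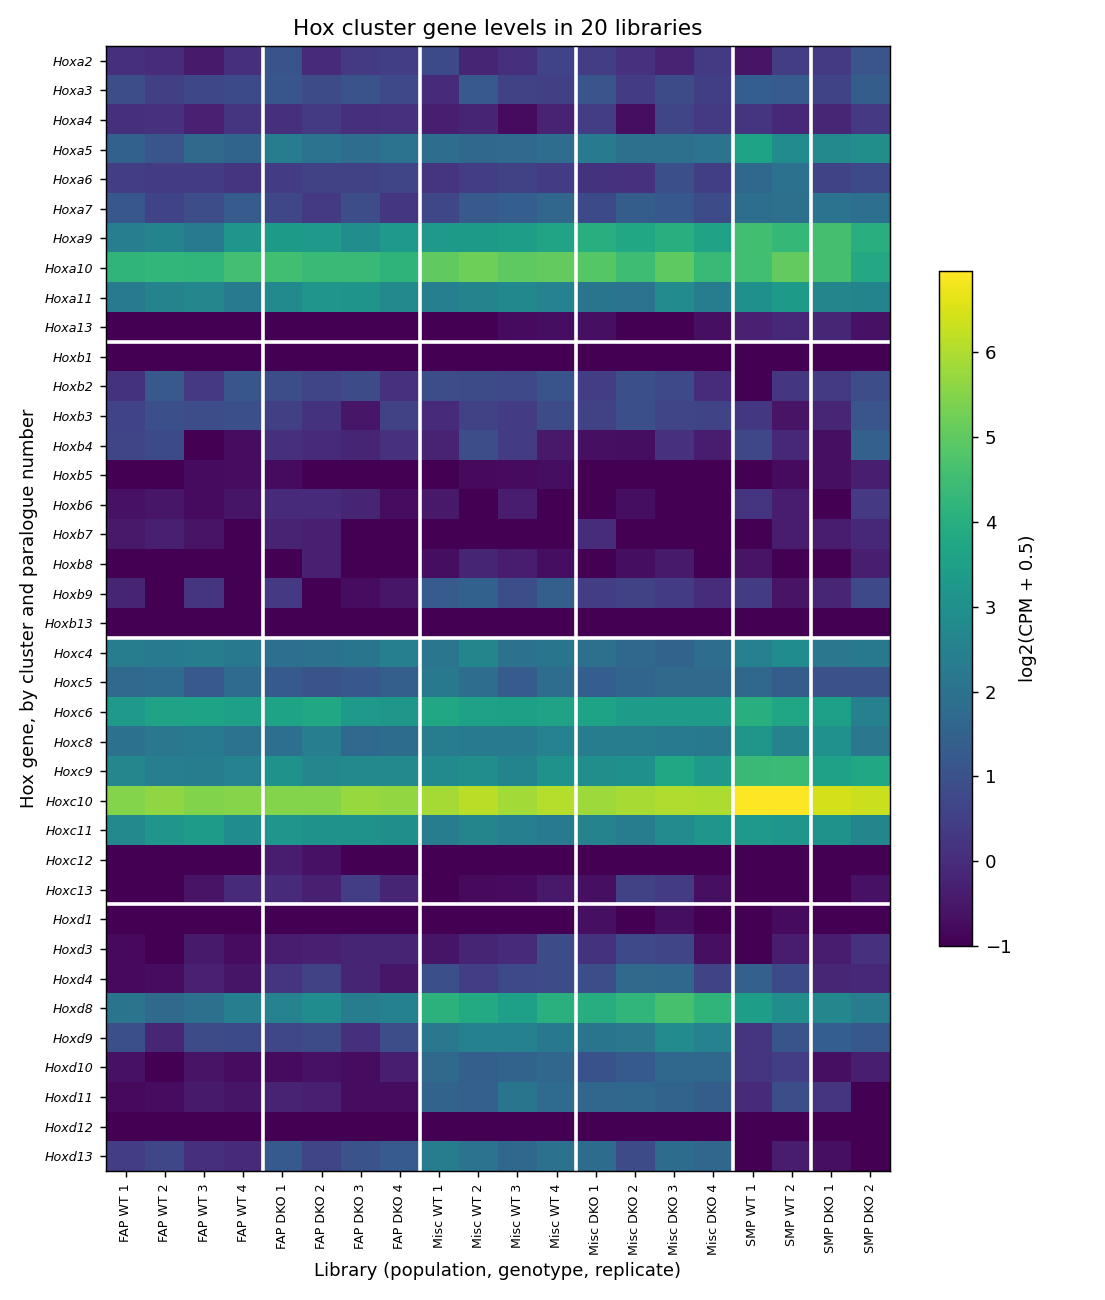
Level of the Hox genes (rows, by cluster and paralogue number) in each of the 20 libraries (columns), as log2(CPM + 0.5). Hoxc10 is the brightest gene in every library, most HoxB genes are near the bottom of the scale, and Hoxd8, Hoxd9, Hoxd10 and Hoxd11 are brighter in each of the 8 Misc libraries than in any of the 8 FAP libraries.

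Of the 39 genes, 27 passed the filter on low counts and were tested, 9 had a few counts and 3 (Hoxb1, Hoxb13 and Hoxd12) had none in any library. No count in a series total of 204018992 allows up to 0.0147 CPM over the series, and 0.169 to 0.515 CPM in a single library, by counting error alone. The 9 with few counts were Hoxa4 (105 counts over the series), Hoxc13 (49), Hoxb6 (44), Hoxb7 (26), Hoxb8 (20), Hoxa13 (17), Hoxb5 (10), Hoxc12 (4) and Hoxd1 (3). Hoxd12 was thus without a count between Hoxd13 and Hoxd11, its neighbours on the chromosome, which were both counted. Of the 27 tested, 16 reached the filter's level in all 3 populations, whereas Hoxb9, Hoxd3, Hoxd10 and Hoxd11 did so only through Misc and Hoxa2 only through SMP. Genes that entered through a single population could hardly fail to be higher there, so their calls describe the libraries and carry no further weight. Calls against a population that did not reach the level carry a like limit. That population was SMP for Hoxb3 and Hoxd13, FAP for Hoxa6 and Hoxd4, and Misc for Hoxb4.

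The clearest difference between the populations was in HoxD, which was low in FAP and high in Misc in both genotypes. Summed over its 9 genes, HoxD stood at 6.08 ± 1.12 CPM (SD, n = 4) in FAP WT and 29.7 ± 2.94 in Misc WT, and at 9.45 ± 1.33 in FAP DKO and 33.8 ± 6.42 in Misc DKO. The 8 Misc libraries lay between 26.3 and 43.0 CPM and the 8 FAP libraries between 4.56 and 11, with no overlap. In SMP the sum was 13.7 ± 1.21 (SD, n = 2) in WT and 8.66 ± 1.35 in DKO. As a share of all Hox counts, HoxD was 4.75% in FAP WT, 15.6% in Misc WT and 4.98% in SMP WT, and 6.67%, 17.9% and 4.42% in the DKO groups in the same order. HoxC summed to 80.5 ± 3.73 CPM in FAP WT, 98.7 ± 8.34 in Misc WT and 182 ± 4.39 in SMP WT, so there SMP libraries stood highest. The high HoxD sum in Misc moved with the tendon markers given above, whose part in it was not tested. In bulk libraries, more cells of a type and more RNA per cell cannot be told apart.

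**Figure D2:**
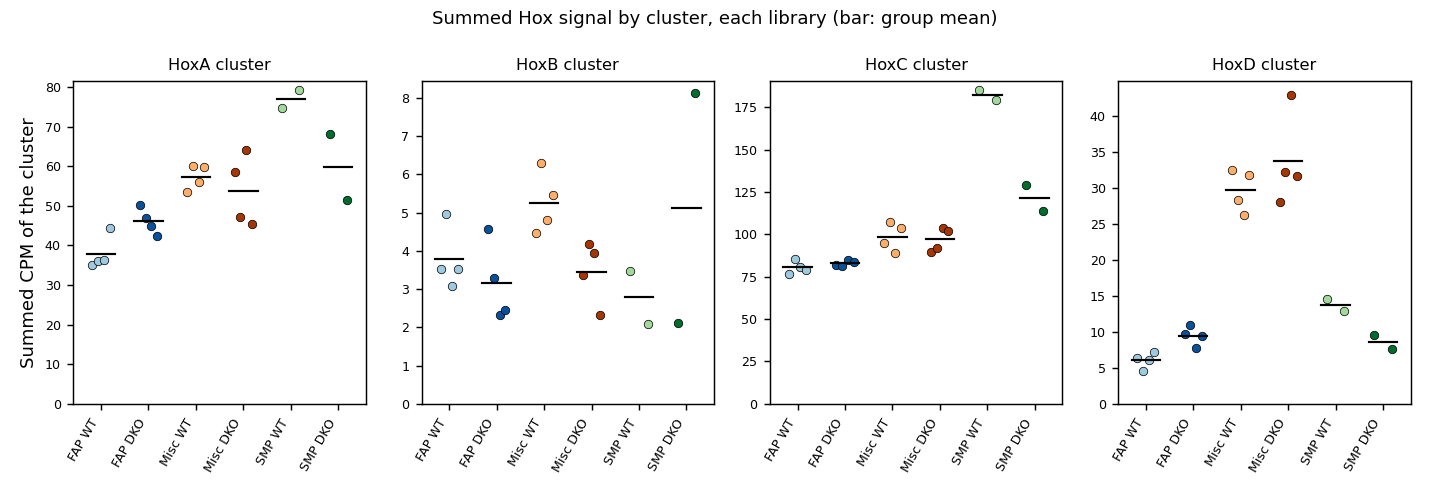
Summed CPM of each Hox cluster (y axis, from 0) in each library (points) by group, with the group mean as a bar. HoxD sums are 26.3 to 43.0 CPM in Misc libraries and 4.56 to 11 in FAP libraries, while HoxA and HoxC sums are highest in the 2 SMP WT libraries.

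Hoxd8, a trunk gene and the HoxD gene with the most counts, was at 3.69, 2.84, 3.34 and 4.95 CPM in FAP WT and at 17.0, 14.0, 10.7 and 16.2 in Misc WT. In DKO it was at 5.31, 6.89, 4.64 and 5.10 CPM in FAP and at 15.2, 18.3, 24.6 and 17.9 in Misc. FAP and Misc libraries did not overlap in either genotype, and the log2 fold change of FAP over Misc was -1.97 ± 0.20 (SE) in WT (adjusted p = 2e-08) and -1.81 ± 0.20 in DKO (adjusted p = 9e-08). Hoxd9, which with Hoxa9 acts in the upper limb segment, was at 1.41, 0.405, 1.25 and 1.24 CPM in FAP WT and 4.06, 5.12, 5.10 and 4.20 in Misc WT. In DKO its values were 1.12, 1.25, 0.581 and 1.37 CPM in FAP against 3.73, 4.07, 6.59 and 5.31 in Misc. Again no FAP library reached a Misc library, with log2 fold changes of -2.06 ± 0.32 in WT (adjusted p = 1e-05) and -2.19 ± 0.33 in DKO (adjusted p = 1.2e-05). These 2 genes reached the filter's level in all 3 populations.

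Hoxd10 and Hoxd11, posterior genes of the middle limb segments, were nearly uncounted in FAP. Hoxd10 had 5 counts over the 4 FAP WT libraries (0.157, 0, 0.167 and 0.0952 CPM) and 125 over the 4 Misc WT libraries (2.89, 2.13, 2.37 and 2.61 CPM). In DKO it had 6 counts in FAP (0.0932, 0.157, 0.0968 and 0.294 CPM) and 71 in Misc (1.49, 1.91, 2.64 and 2.72 CPM). The 2 populations were far apart in every library, and the log2 fold change was -4.36 ± 0.48 in WT (adjusted p = 5.7e-08) and -3.68 ± 0.48 in DKO (adjusted p = 1.4e-06). Hoxd11 had 7 counts in FAP WT (0.0785, 0.101, 0.25 and 0.190 CPM) and 136 in Misc WT (2.41, 2.21, 3.73 and 2.95 CPM). In DKO it stood at 0.373, 0.313, 0.0968 and 0.0980 CPM in FAP and at 2.61, 2.63, 2.40 and 2.07 in Misc, so the populations did not overlap. Its log2 fold change was -4.07 ± 0.52 in WT (adjusted p = 7.2e-07) and -3.44 ± 0.53 in DKO (adjusted p = 1.5e-05). Both genes entered the filter only through Misc, so their direction was nearly set by it and their calls carry no further weight. They also share exon bases with the annotated gene Gm28309 on the same strand, so some of their reads may have been assigned otherwise.

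Hoxd13, the most posterior gene, which acts in the digits, was at 0.863, 1.11, 0.584 and 0.476 CPM in FAP WT and at 4.54, 3.55, 2.73 and 3.40 in Misc WT. In DKO it was at 1.86, 1.10, 1.55 and 1.96 CPM in FAP and at 2.99, 1.32, 2.99 and 2.59 in Misc. The WT libraries did not overlap (log2 fold change -2.23 ± 0.37, adjusted p = 3e-05), whereas the DKO libraries did (-0.58 ± 0.36, adjusted p = 0.25). The difference between these 2 contrasts was 1.64 ± 0.52 and missed the threshold (adjusted p = 0.11). Hoxd4, an anterior gene of the neck and hindbrain, was at 0.0785, 0.101, 0.334 and 0.190 CPM in FAP WT and 1.41, 0.867, 1.18 and 1.25 in Misc WT. In DKO it was at 0.653, 0.940, 0.387 and 0.196 CPM in FAP and at 1.37, 2.87, 2.64 and 1.04 in Misc. No library of FAP reached Misc in its own genotype, with log2 fold changes of -2.66 ± 0.54 in WT (adjusted p = 0.00034) and -1.92 ± 0.47 in DKO (adjusted p = 0.0025). Hoxd3 had 5 counts in FAP WT and 24 in Misc WT, and its call (-2.12 ± 0.82, adjusted p = 0.045) was lost under 8 of 14 alternatives, with adjusted p up to 0.2. Hoxd3 and Hoxd4 share exon bases, so their counts cannot be fully told apart.

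**Figure D3:**
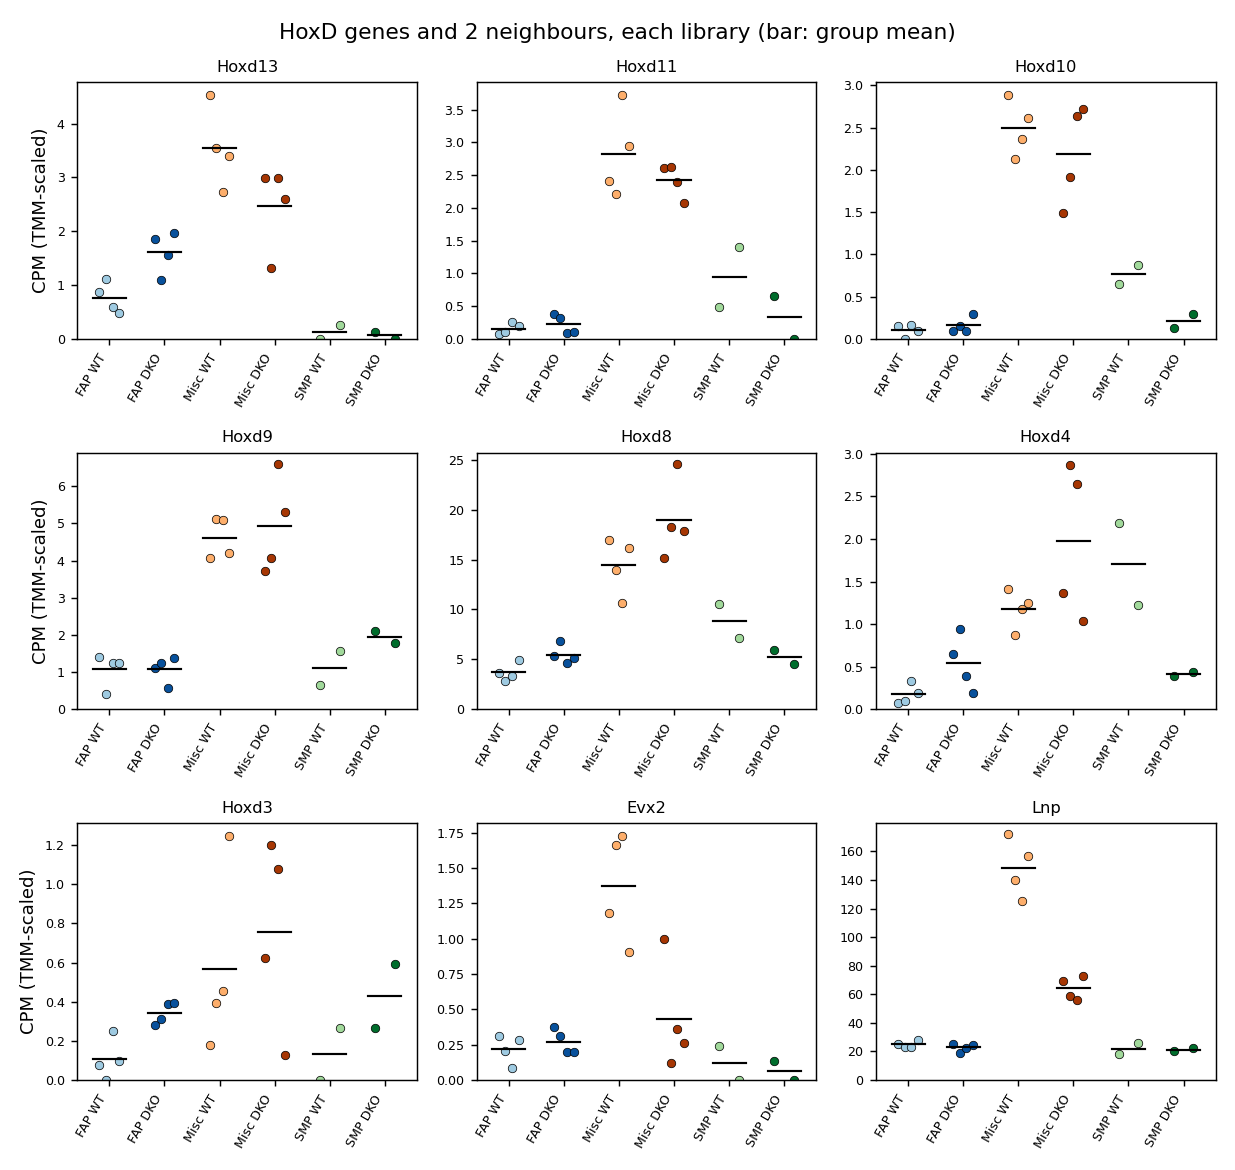
CPM (y axes, each from 0) of 7 HoxD genes and of the neighbouring genes Evx2 and Lnp in each library (points), by group, with group means as bars. Hoxd8, Hoxd9, Hoxd10 and Hoxd11 are higher in every Misc library than in any FAP library, and Lnp is highest in Misc WT, at 125 to 172 CPM.

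Over all tested Hox genes, FAP against Misc gave 1 higher and 11 lower in WT and 1 higher and 8 lower in DKO, of 27 in each. Over all 14179 genes tested, 36.9% were called in WT (19.3% higher and 17.6% lower) and 29.7% in DKO (16% higher and 13.7% lower). The median log2 fold change of the 27 genes was -0.34 in WT and -0.37 in DKO, against 0.01 and -0.02 over all genes. Of the WT calls, 58.3% were also called in DKO, and of the DKO calls 77.8% in WT, a shared set of 7: Hoxa9, Hoxc10, Hoxd4, Hoxd8, Hoxd9, Hoxd10 and Hoxd11. The 11 genes lower in WT include 4 that entered the filter only through Misc (Hoxb9, Hoxd3, Hoxd10 and Hoxd11), and the 8 lower in DKO include 2 of these (Hoxd10 and Hoxd11).

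**Figure D4:**
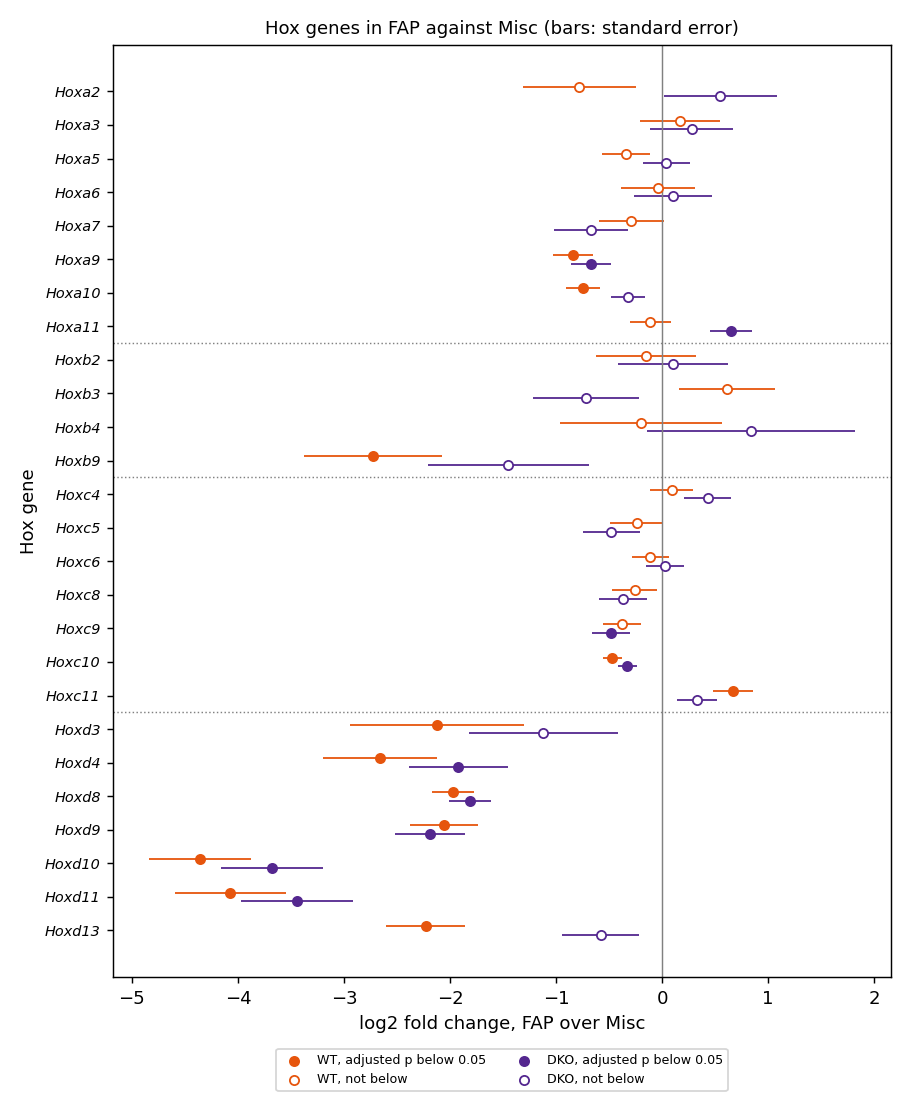
log2 fold change of FAP over Misc (x axis) for tested Hox genes, in WT (orange) and DKO (purple), with the standard error as a bar and filled points where the adjusted p was below 0.05. HoxD genes lie between -4.36 and -0.58, and HoxC genes between -0.48 and 0.67.

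Outside HoxD the called differences between FAP and Misc were smaller, apart from that of Hoxb9 in WT. Hoxa9 was at 4.79, 5.57, 4.34 and 8.56 CPM in FAP WT and at 9.37, 9.54, 10.6 and 12.1 in Misc WT, without overlap (-0.84 ± 0.19, adjusted p = 0.0011). In DKO, Hoxa9 was at 9.51, 9.40, 6.97 and 9.31 CPM in FAP and 15.5, 12.9, 15.7 and 11.5 in Misc (-0.67 ± 0.19, adjusted p = 0.0084). Hoxc10 was lower in FAP by -0.47 ± 0.09 in WT (adjusted p = 0.00012) and -0.33 ± 0.09 in DKO (adjusted p = 0.0061). Hoxa10, which acts in the upper limb and the uterus, was lower in FAP in WT (-0.75 ± 0.16, adjusted p = 0.00042), and its -0.32 ± 0.16 in DKO missed the threshold (adjusted p = 0.14). Hoxb9, which entered the filter only through Misc, had 13 counts in FAP WT and 96 in Misc WT (-2.73 ± 0.65, adjusted p = 0.0016), and its -1.45 ± 0.76 in DKO was not called (adjusted p = 0.17). Higher in FAP were Hoxc11 in WT (0.67 ± 0.19, adjusted p = 0.0066) and Hoxa11 in DKO (0.65 ± 0.20, adjusted p = 0.015). The DKO libraries of Hoxa11 overlapped, and its call was lost without Misc DKO replicate 1 (adjusted p = 0.05) or replicate 2 (0.056). The DKO call of Hoxc9 (-0.48 ± 0.18, adjusted p = 0.046) was lost in 11 of 15 alternatives, among them the block by replicate number within genotype (adjusted p = 0.064). That block is the pairing the data bear out for these populations.

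Of 16 tested neighbours of the 4 clusters, 1 was lower in FAP DKO (10.7% of all genes were called there in either direction), 1 higher and 3 lower in Misc DKO (18.7%), and 4 higher and 3 lower in SMP DKO (23%). The genes beside HoxD moved unequally. Lnp, which encodes the endoplasmic reticulum protein lunapark and lies on the Hoxd13 side of the cluster, was at 23.0 to 27.8 CPM in FAP WT and at 172, 140, 125 and 157 in Misc WT. In DKO it was at 18.9 to 25.4 CPM in FAP and at 69.4, 58.6, 55.9 and 72.9 in Misc. FAP lay below Misc by -2.58 ± 0.13 in WT (adjusted p = 3.1e-14) and -1.49 ± 0.13 in DKO (adjusted p = 1.5e-09), and Lnp fell by 1.21 on the log2 scale in Misc DKO (SE 0.12, adjusted p = 1.3e-07). The DKO effect on Lnp differed between FAP and Misc by 1.10 ± 0.18 (adjusted p = 0.00062). Evx2, a homeobox gene next to Hoxd13, showed the same order at low counts, at 0.0834 to 0.314 CPM in FAP WT and 0.908 to 1.73 in Misc WT (-2.57 ± 0.57, adjusted p = 0.00081), and was lower in Misc DKO than in Misc WT (-1.64 ± 0.55, adjusted p = 0.037). Mtx2, a mitochondrial import gene on the other side of the cluster, did not pass between FAP and Misc in WT (-0.02 ± 0.14, adjusted p = 0.94). In DKO, Mtx2 was called lower in FAP than in Misc, and it was higher in Misc DKO than in Misc WT (0.51 ± 0.14, adjusted p = 0.012). So the HoxD genes with high counts, Hoxd8 and Hoxd9, did not pass the test between Misc DKO and Misc WT, at 0.39 ± 0.18 (adjusted p = 0.14) and 0.09 ± 0.28 (adjusted p = 0.86), where Lnp fell.

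Between Misc and SMP the clusters parted. Each HoxA or HoxC gene that passed was higher in SMP than in FAP or Misc, and each HoxD gene that passed between Misc and SMP was higher in Misc. Of these HoxD genes, Hoxd10 and Hoxd11 entered the filter only through Misc, and Hoxd13 did not reach its level in SMP. Their direction against SMP was thus nearly set by the filter, whereas Hoxd8 and Hoxd9 reached the level in all 3 populations. Between FAP and SMP in WT, 1 HoxD gene was higher in FAP and 4 were lower, the direction of HoxA and HoxC. Among these 4 were Hoxd8 (-1.27 ± 0.24, adjusted p = 7.8e-05) and Hoxd4 (-3.19 ± 0.59, adjusted p = 5.4e-05), which did not reach the filter's level in FAP. In DKO, 1 HoxD gene was higher in FAP than in SMP and 0 were lower. FAP against SMP gave 3 higher and 13 lower in WT and 1 higher and 6 lower in DKO, where 62.3% (31.1% higher and 31.3% lower) and 58.8% (29.2% higher and 29.6% lower) of all genes were called. Misc against SMP gave 7 higher and 9 lower in WT and 6 higher and 4 lower in DKO, where 60.6% (30.6% higher and 30% lower) and 59.5% (29.8% higher and 29.7% lower) of all genes were called. Counted in either direction, the share of Hox genes called was below that of all genes in each of the 4 comparisons, whereas the 13 of 27 lower in FAP WT were a larger share than the 31.3% of all genes. The comparisons share the SMP libraries, of which there were 2 per genotype.

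Hoxc10 was at 124 and 123 CPM in SMP WT and at 86.4 and 80.1 in SMP DKO, against 43.5 to 49.5 in FAP WT, 44.0 to 52.7 in FAP DKO, 57.7 to 69.9 in Misc WT and 55.2 to 64.0 in Misc DKO. Every SMP library lay above every FAP and Misc library. Hoxc10 shares exon bases with an annotated transcript of Hoxc5. In WT the log2 fold change was -1.44 ± 0.10 for FAP over SMP (adjusted p = 2.3e-11) and -0.96 ± 0.10 for Misc over SMP (adjusted p = 2.3e-08). Hoxc9 was at 20.6 and 20.9 CPM in SMP WT, 11.2 and 13.3 in SMP DKO, 4.67 to 5.96 in FAP WT, 5.95 to 7.92 in FAP DKO, 5.55 to 8.06 in Misc WT and 7.09 to 12.9 in Misc DKO. Its DKO libraries of Misc and SMP thus overlapped (-0.40 ± 0.21, adjusted p = 0.11), whereas in WT Misc lay below SMP by -1.61 ± 0.19 (adjusted p = 1.6e-07).

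The trunk genes Hoxa5 and Hoxa7 and the more posterior Hoxa9 were also highest in SMP. Hoxa5, known for its part in lung and thoracic patterning, was at 11.9 and 6.66 CPM in SMP WT and 6.19 and 7.11 in SMP DKO, and at 2.28, 1.62, 2.84 and 2.47 in FAP WT and 3.06, 2.76, 2.82 and 3.06 in Misc WT. In DKO it was at 4.57, 3.60, 3.10 and 3.63 CPM in FAP and 4.23, 3.35, 3.35 and 3.62 in Misc, so no FAP or Misc library reached SMP. FAP lay below SMP by -2.0 ± 0.24 in WT (adjusted p = 1.6e-07) and -0.83 ± 0.26 in DKO (adjusted p = 0.0083). The DKO call was lost without SMP DKO replicate 2 (adjusted p = 0.082). Hoxa9 was at 22.9 and 19.1 CPM in SMP WT and 24.2 and 15.7 in SMP DKO, above every FAP library (-1.86 ± 0.21 in WT, adjusted p = 6.9e-08, and -1.19 ± 0.22 in DKO, adjusted p = 6.7e-05). Hoxa7 was at 3.16 and 3.33 CPM in SMP WT and 3.56 and 3.26 in SMP DKO, against 1.01 to 2.00 in FAP WT, 0.686 to 1.35 in FAP DKO, 1.12 to 2.61 in Misc WT and 1.24 to 2.03 in Misc DKO. FAP lay below SMP by -1.08 ± 0.35 in WT (adjusted p = 0.0092) and -1.76 ± 0.39 in DKO (adjusted p = 0.00042). Exons of Hoxa7 overlap the antisense gene Hoxaas3, whose reads cannot be told apart without strand and which was also higher in SMP WT. Against Misc, the Hoxa7 call in WT (adjusted p = 0.049) was lost under 9 of 13 alternatives. The Hoxa9 call against Misc in DKO (adjusted p = 0.043) was lost under 7 of 13.

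Posterior HoxD genes were lower in SMP than in Misc. Hoxd13 had 3 counts in the 2 SMP WT libraries (0 and 0.263 CPM) and 1 in the 2 SMP DKO libraries (0.132 and 0 CPM). From these counts, Misc exceeded SMP 29.1-fold in WT (95% exact binomial interval 9.81 to 143) and 35.3-fold in DKO (6.16 to 1413), and FAP exceeded SMP 5.97-fold (1.88 to 30.4) and 24.0-fold (4.15 to 963), intervals that cover counting error only. Every FAP library had more Hoxd13 signal than any SMP library. The call for FAP over SMP in WT (adjusted p = 0.0059) was lost without SMP WT replicate 1 (adjusted p = 0.11). Hoxd10 was at 0.648 and 0.876 CPM in SMP WT and at 0.132 and 0.296 in SMP DKO, the latter from 3 counts, so that Misc exceeded SMP 10.5-fold in DKO (3.44 to 51.9). Hoxd11 was at 0.486 and 1.40 CPM in SMP WT and 0.659 and 0 in SMP DKO. In WT both lay between FAP and Misc: FAP was below SMP by -2.66 ± 0.61 for Hoxd10 (adjusted p = 0.0006) and by -2.50 ± 0.66 for Hoxd11 (adjusted p = 0.0022), and Misc was above SMP by 1.70 ± 0.45 (adjusted p = 0.0024) and 1.57 ± 0.51 (adjusted p = 0.01). Both Hoxd11 calls rest on single SMP libraries: without SMP WT replicate 2 the FAP comparison gave an adjusted p of 0.13, and without replicate 1 the Misc comparison gave 0.16. The Misc comparison was also lost with the block by replicate number within genotype (adjusted p = 0.054), a pairing not borne out for SMP. Hoxd9 was at 0.648 and 1.58 CPM in SMP WT and 2.11 and 1.78 in SMP DKO, below every Misc library in both genotypes.

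No tested Hox gene passed between DKO and WT in FAP or Misc. In FAP none of the 27 tested genes passed, where 10.7% of all genes were called. By edgeR, 6 had an unadjusted p below 0.05, and DESeq2 called 1. In Misc none passed, where 18.7% of all genes were called. Again 6 had an unadjusted p below 0.05, and DESeq2 called 0. The lowest adjusted p was 0.052 for Hoxa9 in FAP and 0.077 for Hoxc4 in Misc, and these misses do not show that the levels were equal.

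The 4 FAP genes nearest the threshold had higher mean levels in DKO. Hoxa5 (FAP values above) had a log2 fold change of 0.69 ± 0.23 (adjusted p = 0.054), and its DKO and WT libraries did not overlap. Hoxa11, a gene of the middle limb segment, was at 4.32, 5.37, 5.92 and 4.28 CPM in FAP WT and at 6.43, 8.46, 8.22 and 6.27 in FAP DKO, also without overlap (0.55 ± 0.19, adjusted p = 0.067), and its exons overlap the antisense gene Hoxa11os, whose reads cannot be told apart without strand. Hoxa9 (0.60 ± 0.20) overlapped, since FAP WT replicate 4 at 8.56 CPM lay above FAP DKO replicate 3 at 6.97. Hoxd13 changed by 1.11 ± 0.40 (adjusted p = 0.078). With the fit restricted to the FAP libraries these 4 genes passed, and with a block by replicate number Hoxa9 and Hoxa11 did. FAP DKO libraries also held more tendon marker RNA than FAP WT (2960 to 4830 against 591 to 801 CPM), whose part in these values was not tested.

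In SMP, 5 of the 27 tested genes were lower in DKO and none higher, where 11.2% of all genes were called lower and 23% called in either direction. Hoxc10 fell by 0.57 on the log2 scale (SE 0.12, adjusted p = 0.0023), from 124 and 123 to 86.4 and 80.1 CPM, and this call held under all 10 alternatives run. Hoxa6, a trunk gene, was at 2.67 and 3.50 CPM in WT and 1.05 and 1.18 in DKO (-1.46 ± 0.46, adjusted p = 0.025). Hoxc9 fell by 0.76 (SE 0.23, adjusted p = 0.023) without overlap, from the values given above. Hoxc6, which acts in the thoracic region, was at 15.6 and 12.4 CPM in WT and 10.7 and 5.03 in DKO (-0.82 ± 0.25, adjusted p = 0.022). Hoxd4 was at 2.19 and 1.23 CPM in WT and 0.395 and 0.444 in DKO (-2.0 ± 0.71, adjusted p = 0.044). The WT and DKO libraries of all 5 genes were apart, with 2 libraries on each side.

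These SMP calls were fragile apart from that of Hoxc10. Without SMP DKO replicate 2, the library with Pdgfra and Ptprc signal, 2 genes remained past the threshold, and Hoxa6, Hoxc6 and Hoxd4 did not (adjusted p = 0.081, 0.3 and 0.13). Without SMP WT replicate 1, Hoxc6, Hoxc9 and Hoxd4 were lost (adjusted p = 0.15, 0.074 and 0.23). Hoxc9 and Hoxa6 were also lost without SMP WT replicate 2 (adjusted p = 0.067 and 0.11) and without SMP DKO replicate 1 (0.12 and 0.11), and Hoxd4 without the latter (0.15). Markers of other cells also moved between SMP WT and SMP DKO. The 6 muscle fibre markers summed to 31.7 to 42.1 CPM in SMP WT and 176 to 408 in SMP DKO, with 5 of 6 called higher and none at 0 in either group. The Schwann cell markers summed to 226 to 234 against 138 to 174 CPM, with 0 of 5 called. The pericyte and smooth muscle markers summed to 717 to 761 against 447 to 581, with 1 of 6 called lower. The tendon marker sums overlapped (3760 to 4231 against 2569 to 5065), though Scx, Mkx and Tnmd were called lower and none of the 5 higher. The 5 immune markers summed to 19.0 to 25.5 CPM in SMP WT and 31.0 to 536 in SMP DKO, so the DKO libraries differed widely. Cd74, Itgam and Lyz2 were called higher and none lower, and Itgam had no count in SMP WT. The 5 FAP markers had overlapping sums (1411 to 1610 against 759 to 3174), with Ly6a, Pdgfra and Pi16 called higher and none lower. Among the 7 satellite cell and myogenic markers of SMP itself, Des and Pax7 were called lower and Myod1 higher, where 23% of all genes were called. The part of these markers in the SMP values was not tested.

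**Figure D5:**
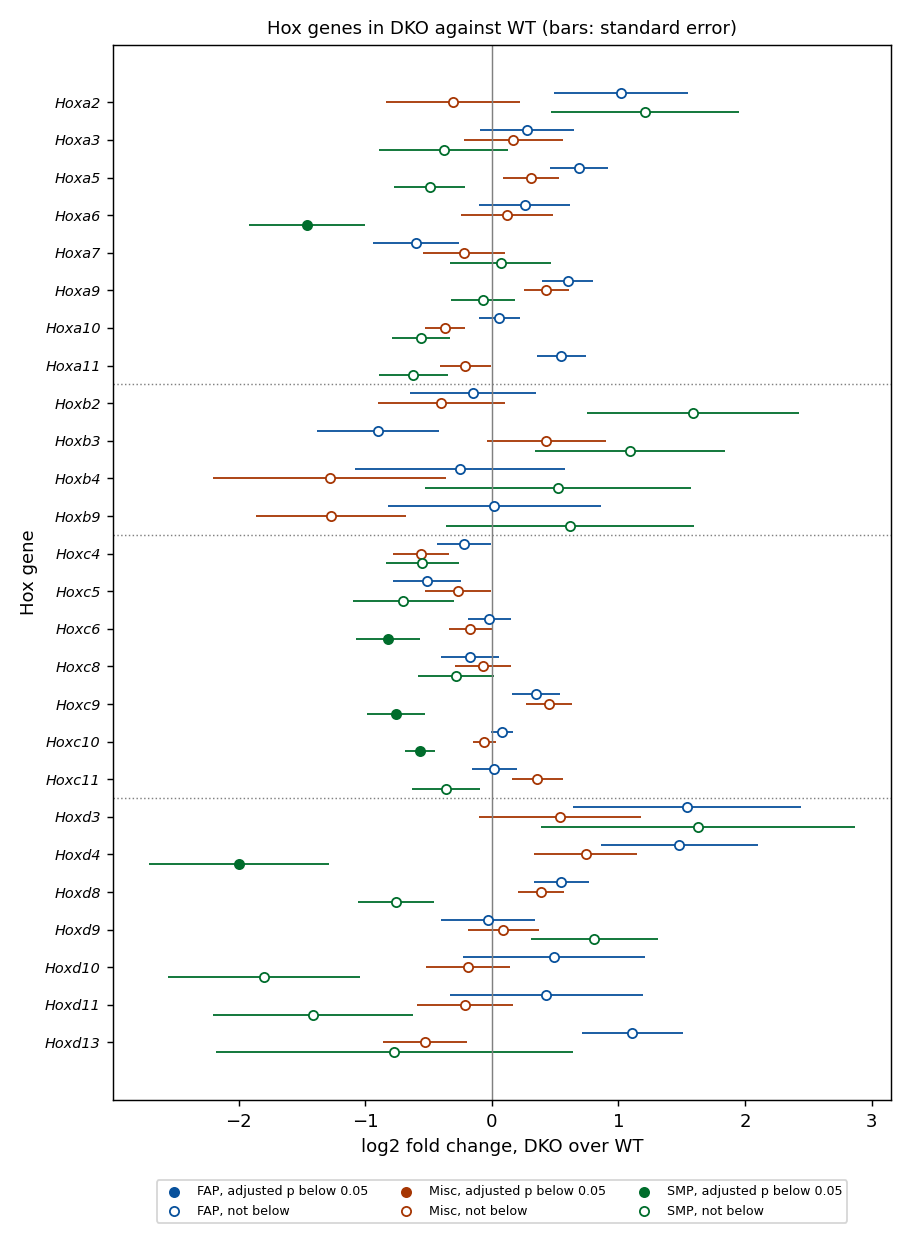
log2 fold change of DKO over WT (x axis) for tested Hox genes in FAP (blue), Misc (brown) and SMP (green), with the standard error as a bar and filled points where the adjusted p was below 0.05. The filled points are the 5 SMP genes Hoxa6, Hoxc6, Hoxc9, Hoxc10 and Hoxd4, at -2.0 to -0.57.

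The DKO effect itself was tested between populations. Between FAP and Misc it differed for none of the 27 genes by edgeR, where 2.77% of all genes were called, and 2 had an unadjusted p below 0.05. Between FAP and SMP it differed for 6 genes, each with the higher value in FAP, where 10.3% of all genes were called and 4.92% in that direction. These were Hoxa5 (1.17 ± 0.36, adjusted p = 0.04), Hoxa11 (1.18 ± 0.34, adjusted p = 0.027), Hoxc9 (1.11 ± 0.30, adjusted p = 0.019), Hoxc10 (0.64 ± 0.15, adjusted p = 0.0086), Hoxd4 (3.48 ± 0.94, adjusted p = 0.02) and Hoxd8 (1.30 ± 0.37, adjusted p = 0.025). Hoxa11 was at 7.54 and 9.64 CPM in SMP WT and 5.66 and 5.48 in SMP DKO, the reverse of its order in FAP. Hoxd8 was at 10.6 and 7.18 CPM in SMP WT and 5.93 and 4.59 in SMP DKO. Between Misc and SMP the effect differed for 4 genes, again higher in Misc, where 8.95% of all genes were called and 4.61% in that direction: Hoxc9 (1.21 ± 0.29, adjusted p = 0.011), Hoxc10 (0.50 ± 0.15, adjusted p = 0.039), Hoxd4 (2.74 ± 0.82, adjusted p = 0.037) and Hoxd8 (1.14 ± 0.35, adjusted p = 0.039). Both sets share the SMP libraries. Without SMP DKO replicate 2 they shrank to 2 and 1 genes, and without SMP WT replicate 1 likewise to 2 and 1. With the block by replicate number within genotype, Hoxc9 was no longer called between FAP and SMP (adjusted p = 0.071), and between Misc and SMP 1 gene was left, Hoxc9 (0.051), Hoxc10 (0.12) and Hoxd8 (0.059) being lost. That pairing was borne out for FAP with Misc but not for SMP.

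Among the Hox cofactors of the Meis and Pknox families, none passed between DKO and WT in FAP. Meis1 was lower in DKO in Misc (-0.60 ± 0.13, adjusted p = 0.0015) and SMP (-1.07 ± 0.23, adjusted p = 0.0018). Meis3 (-0.92 ± 0.22, adjusted p = 0.0049) and Pknox2 (-0.80 ± 0.19, adjusted p = 0.005) were lower in SMP alone. Meis2 and Pknox1 passed in no population. Of all genes, 10.7% were called in FAP, 18.7% in Misc and 23% in SMP.

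The regulators of the clusters are given beside the share of all genes called between DKO and WT, 10.7% in FAP, 18.7% in Misc and 23% in SMP. Of 22 tested Polycomb genes, 1 was lower in DKO in FAP (Ezh1, a histone H3K27 methyltransferase, -0.44 ± 0.09, adjusted p = 0.0019), 2 were lower in Misc (Ezh1 and Phc3), and in SMP 3 were lower and 1 higher. Of 11 Trithorax genes and H3K27 demethylases, 1 was higher in FAP DKO, and 1 was higher and 1 lower in each of Misc DKO and SMP DKO. Psip1, a chromatin reader, was the higher gene in FAP (0.44 ± 0.13, adjusted p = 0.025) and Misc (0.62 ± 0.13, adjusted p = 0.0011). Between FAP and Misc in WT, 2 Polycomb genes were higher and 2 lower, and none of the 11 Trithorax genes passed, where 36.9% of all genes were called. Against SMP in WT, 2 Polycomb genes were higher and 10 lower in FAP and 2 higher and 11 lower in Misc, and 6 Trithorax genes were lower in each, with 1 higher in Misc, where 62.3% and 60.6% of all genes were called. Of 15 tested genes of retinoic acid signalling, an activator of anterior Hox genes, 1 was higher and 1 lower in FAP DKO, 1 higher and 6 lower in Misc DKO, and 1 lower in SMP DKO. The share called was above that of all genes in Misc, near it in FAP and below it in SMP. The 6 lower genes in Misc were Aldh1a1, Crabp1, Cyp26a1, Cyp26b1, Rarg and Rxrg. Crabp2, a retinoic acid carrier, was the gene that was higher in FAP (1.04 ± 0.23, adjusted p = 0.0036) and in Misc (0.76 ± 0.21, adjusted p = 0.011). Of 4 tested non-coding RNAs of the clusters, none passed between DKO and WT. Against SMP in WT, 3 of the 4 (Hotair, Hoxa11os and Hoxaas3) were lower in FAP and the same 3 in Misc, beside the 62.3% and 60.6% of all genes called. In DKO, 1 was lower in FAP (Hotair) and 1 in Misc (Hoxaas3), where 58.8% and 59.5% of all genes were called. Hotair, transcribed within HoxC, was at 6.64 and 10.6 CPM in SMP WT and 1.92 to 3.09 in FAP WT (FAP over SMP -1.78 ± 0.25, adjusted p = 1e-06).

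Genes of limb identity were present beside the Hox genes. Tbx4, which marks the hindlimb, was at 6.58 to 23.2 CPM over all libraries and was lower in Misc DKO than in Misc WT (-1.16 ± 0.17, adjusted p = 3.7e-05). Pitx1, another hindlimb gene, was lower in FAP than in Misc, by -1.44 ± 0.26 in WT (adjusted p = 7.5e-05) and -0.75 ± 0.27 in DKO (adjusted p = 0.038). Tbx5, known for the forelimb, had the opposite order, at 11.4 to 16.0 CPM in FAP WT and 5.10 to 6.54 in Misc WT (1.38 ± 0.21, adjusted p = 6.6e-06). Of the 17 tested genes of this list, 5 were higher and 6 lower in FAP than in Misc in WT, where 36.9% of all genes were called. Between DKO and WT, 1 was higher in FAP, 3 higher and 2 lower in Misc, and 2 lower in SMP, beside 10.7%, 18.7% and 23% of all genes. Lhx2 was the gene that was higher in FAP DKO (1.51 ± 0.33, adjusted p = 0.0034) and was also higher in Misc DKO (1.33 ± 0.27, adjusted p = 0.00098).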

How the data were processed

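RNA was counted per gene by the authors, who deposited 1 table of raw counts. Per the series design text, reads of 100 bases, 22 M per library on average, were mapped with OSA to mm10 with RefSeq annotation, and DESeq2 is named in the submitters' processing notes. No source used here names the counting tool or says whether it used strand. Of the 39 genes, 14 share exon bases with another annotated gene (7 on the same strand, 9 antisense), and their counts are uncertain. Of the table's symbols, 52 that were blank or had turned into dates were restored from identifiers.

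Genes were kept by edgeR's filterByExpr with the 6 groups (at least 10 counts and a total of 15, smallest group 2), leaving 14179, and counts were scaled by TMM. CPM values use the scaled totals. edgeR 4.0.16 (R 4.3.3) fitted a robust quasi-likelihood model to all 6 groups without a block. Tests compared DKO with WT, populations within a genotype, and DKO effects between populations, with Benjamini-Hochberg adjustment over all genes tested and a call below 0.05. Standard errors are the absolute log2 fold change over the square root of F. The step was tested on simulated data. Summed levels carry no test. Depth of 5.83 to 17.73 M counts limits genes below about 1 CPM.

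The members and the gene lists were chosen with earlier results of these data known. Values in every library are given for genes called in a DKO comparison or interaction, and for the 6 with the largest change per pair of populations among those called in both genotypes without overlap. Other Hox genes, lists and neighbours named were taken for their role or their call. A few listed genes are not reported here by name or drawn.

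Whether replicate numbers pair libraries was checked by correlating deviations from group means. For FAP with Misc, the 4 same-numbered pairs gave correlations of 0.18 to 0.23 in WT and 0.18 to 0.34 in DKO, while other pairs gave -0.18 to 0.06. Numbers were therefore taken to pair FAP with Misc within a genotype, which no label states. Same-numbered DKO and WT libraries gave -0.06 to 0.29 in FAP and -0.16 to 0.03 in Misc, so these were not taken as pairs. Same-numbered SMP libraries gave -0.26 to 0.06 with FAP and -0.07 to 0.04 with Misc. Other SMP pairs gave -0.14 to 0.26 and -0.15 to 0.15, so numbers were not borne out as pairing SMP. In comparisons with SMP the block within genotype is thus 1 more alternative and not a known pairing. Alternatives were the Wald test of DESeq2 1.42.0, its size factors in edgeR, every gene with a count, a fit of the compared groups alone, 3 blocks (by number, by number within genotype, by column letters), unscaled totals for sums, and each library left out.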

Additional observations from a re-analysis of the deposited data

Results flagged for a closer look

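A test for a library far from its group at the 95% level was run on 108 groups of 4 libraries and marked 6, and chance marks about 1 in 20. Hoxa9 was at 6.97 CPM in FAP DKO replicate 3 against 9.31 to 9.51 in the others. Hoxa10 was at 23.3 CPM in FAP WT replicate 4 against 18 to 18.7. Hoxc4 was at 5.83 CPM in Misc WT replicate 2 against 3.46 to 3.83. Hoxc5 was at 1.84 CPM in FAP WT replicate 3 against 2.82 to 2.95. Hoxc6 was at 11.8 CPM in Misc DKO replicate 1 against 9.81 to 10.1. Hoxc9 was at 7.92 CPM in FAP DKO replicate 1 against 5.95 to 6.27.

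The DKO effect differed between populations by a test of the difference itself in 10 cases. Between FAP and SMP the differences (log2) were 1.17 for Hoxa5, 1.18 for Hoxa11, 1.11 for Hoxc9, 0.64 for Hoxc10, 3.48 for Hoxd4 and 1.30 for Hoxd8. Between Misc and SMP they were 1.21 for Hoxc9, 0.50 for Hoxc10, 2.74 for Hoxd4 and 1.14 for Hoxd8.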

How the results depend on the processing

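Of 85 calls of a Hox gene over all comparisons, 48 held under every alternative run for them, 37 were lost under some and none changed sign. Counts of called genes between populations stayed within 1.5 times of the values given under each alternative. The others moved as follows, and the cause was not tested. With the compared groups alone in the fit, which tests fewer genes, the counts were 4 for DKO in FAP, 1 in Misc, 1 in SMP, 1 for the DKO effect in FAP against Misc and 1 for Misc against SMP. With a replicate block by number, FAP DKO gave 2. With a replicate block by column letters, FAP DKO gave 1, SMP DKO 2 and the DKO effect in Misc against SMP 2. With the replicate block within genotype the last gave 1. No block moved any other count by over 1.5 times. The DESeq2 Wald test gave 1 in FAP DKO. With single libraries left out, counts ranged from 0 to 2 in FAP DKO (1 without WT replicate 3 or WT replicate 4, 2 without DKO replicate 3), from 0 to 1 in Misc DKO (1 without DKO replicate 1 or 3), and from 2 to 5 in SMP DKO (3 without WT replicate 1, 2 without DKO replicate 2). They ranged from 2 to 7 for the DKO effect in FAP against SMP (2 without SMP WT replicate 1 or SMP DKO replicate 2). For Misc against SMP they ranged from 1 to 4 (1 without Misc WT replicate 3, Misc DKO replicate 3, SMP WT replicate 1 or SMP DKO replicate 2, and 2 without Misc WT replicate 2 or 4 or Misc DKO replicate 4). Among uncalled genes, Misc over SMP in DKO ranged from -2.93 (without SMP DKO replicate 1) to 1.02 (without replicate 2) for Hoxb4, from -0.02 (without replicate 2) to 1.06 (without replicate 1) for Hoxc6 and from -0.77 (without replicate 2) to 0.17 (without replicate 1) for Hoxc8. Summed levels moved by less than 1 SD with DESeq2 size factors in 24 of 24 cases and with a library left out in 80 of 80, and by more with unscaled totals in 8 of 24. Genes under about 1 CPM, such as Hoxd3 and Hoxd4, rest on a few counts per library.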

Other observations

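Hox calls between populations that were not described above all came from comparisons with SMP, and some of them are given here. Calls of Hoxa6, Hoxa10, Hoxa11, Hoxb9 and Hoxc11 against SMP are among those left without values. Hoxb2 was lower in SMP WT than in FAP WT (FAP over SMP 1.79 ± 0.71, adjusted p = 0.033) and than in Misc WT (1.94 ± 0.71, adjusted p = 0.021), and both calls were lost without SMP WT replicate 1 (adjusted p = 0.35 and 0.26). Hoxb3 was lower in SMP WT than in FAP WT (1.47 ± 0.62, adjusted p = 0.042), a call lost without SMP WT replicate 2 (adjusted p = 0.35) and with the block by replicate number within genotype (0.13). Hoxc8, a gene of the lower thorax, was lower in FAP than in SMP in WT (-0.88 ± 0.25, adjusted p = 0.0036) and in DKO (-0.77 ± 0.27, adjusted p = 0.018), and both calls rest on single SMP libraries, with an adjusted p of 0.2 without SMP WT replicate 1 and 0.67 without SMP DKO replicate 1. The block gave 0.1 for the DKO call, and its pairing was not borne out for SMP.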
